A study of Homo sapiens with 12 samples.

Results

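Interferon-stimulated genes were followed across OCI-LY1 and VAL, 2 established human lines of diffuse large B-cell lymphoma, each transduced with BCL7A in its wild-type form, with delta27-BCL7A or with the vector alone. The 45 genes were taken by symbol from a list of interferon targets and their transcription factors, out of 60603 genes in each count table, by a rule on names alone; the list itself was proposed with earlier results of these data known. Of the 45, 43 passed the filter on low counts and were tested among 17057 genes; HERC5, with 1 read in all 12 libraries together, and LY6E, with 0 to 7 reads per library, did not. Each of the 6 groups held 2 libraries from independent transductions. BCL7A is a subunit of the SWI/SNF chromatin remodelling complexes, and delta27-BCL7A is the splice-site mutant form. Cells of all groups were transduced in 3 infection cycles at a multiplicity of 2 with an LTR vector that also carries the fluorescent reporter ZsGreen1, and reporter-positive cells were sorted. Short and long isoforms were used together for both forms of BCL7A, so the groups do not separate isoforms. RNA was collected 10 days after transduction from OCI-LY1 and 17 days after it from VAL, so that line and day cannot be told apart.

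Type I and type III interferons signal through their receptors and the kinases JAK1 and TYK2 to STAT2, which joins IRF9 in the complex ISGF3. ISGF3 binds the interferon-stimulated response element, a pair of GAAA repeats with a short spacer, and interferon gamma acts mainly through a separate, palindromic element. The target genes encode RNA sensors, enzymes that degrade or modify viral RNA, membrane proteins that block virus entry or release, and further transcription factors such as IRF7 that feed the response. In B cells and B-cell lymphomas many of them are expressed at a basal level without added interferon.

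The element recognised by ISGF3 was looked for in RefSeq promoter windows of GRCh38.p14, each 300 bases long and reaching from 250 bases before to 50 after a gene start. Of the 45 genes, 35 had a window; MX2, OAS2, OASL, IFIT2, DHX58, USP18, IRF7, TRIM22, GBP2 and LY6E had none in the table. The letters GAAA, any 2 bases and GAAA again, read on both strands as the core of the response element, stood in windows of 25 of the 35 genes (71.4%), against 4.38% of all 27305 genes with a window. By window this was 63.8% of 47 against 3.57% of 35116. Of the genes with a window that were higher with wild-type than with delta27-BCL7A in VAL, described further on, 17 of 21 held the letters, as did 7 of the 13 tested genes that were not called there. The letters TTCNNNGAA, the core of the interferon gamma element, stood in 31.9% of the windows of these genes and in 7.66% of all windows. A spacing shorter by 1 base, GAAANGAAA, was added after the sequences were seen and stood in 38.3% of their windows and 3.12% of all. Matches of different motifs can overlap. The stretches below are from the 4 genes that hold the response element letters and have the smallest p in VAL wild-type against delta27-BCL7A, with the motif in capitals and each sequence read 5′ to 3′ along the strand of the gene, so that capitals in the TTTC form are the motif on the opposite strand. MX1 is read at chr21:41431844-41431873 (+), with the motif at -196 from 1 of the 3 starts listed for the gene, inside the gene body (chr21:41420304-41459214). IFI44L is read at chr1:78620239-78620338 (+) and again at chr1:78620365-78620394 (+), with motifs at -164 and -73, also inside the annotated gene body. ISG20 is read at chr15:88638937-88638966 (+), motif at -69, inside its gene body too, and BST2 at chr19:17405741-17405770 (-), motif at -130, outside its gene body.
MX1: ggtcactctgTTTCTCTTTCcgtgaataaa
IFI44L: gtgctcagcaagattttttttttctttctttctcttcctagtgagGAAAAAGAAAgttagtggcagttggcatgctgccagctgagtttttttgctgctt
IFI44L, second match: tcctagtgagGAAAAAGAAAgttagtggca
ISG20: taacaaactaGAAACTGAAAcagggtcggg
BST2: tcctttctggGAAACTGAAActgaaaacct
A match describes the letters of the window and is no measurement of binding.

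Further stretches were chosen after their values were seen. EPSTI1, IFI44 and PARP14 are shown because they were called in both lines between wild-type and delta27-BCL7A, ISG15 because it is the eponymous gene, and SAMD9 because it holds the motif and had a near-zero difference between these forms. EPSTI1 is read at chr13:42992272-42992301 (-), motif at -50, IFI44 at chr1:78649761-78649790 (+), motif at -60, and PARP14 at chr3:122680800-122680829 (+), motif at -29. ISG15 is read at chr1:1013380-1013409 (+), motif at -107, and SAMD9 at chr7:93118061-93118160 (-), motif at -136. The PARP14 and ISG15 stretches lie inside the annotated gene body, and those of EPSTI1, IFI44 and SAMD9 outside it.
EPSTI1: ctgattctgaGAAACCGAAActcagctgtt
IFI44: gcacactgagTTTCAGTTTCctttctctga
PARP14: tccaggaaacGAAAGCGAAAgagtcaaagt
ISG15: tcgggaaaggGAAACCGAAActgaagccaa
SAMD9: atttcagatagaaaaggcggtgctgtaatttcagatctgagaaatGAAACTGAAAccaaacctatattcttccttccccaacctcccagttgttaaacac
SAMD9 and ISG20 both carry GAAACTGAAA, as do BST2, OAS3 and DDX60, and on the opposite strand IFI44, IFIT3, PARP9, GBP1 and RSAD2. Of these genes SAMD9, PARP9, GBP1 and RSAD2 were not called between the forms in VAL, and the others were. These genes are described below, and differences between them were not tested.

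Gene counts per library lay between 21839547 and 24935893. BCL7A stood at 155 and 157 CPM (gene counts scaled to library size with TMM factors) with empty vector in OCI-LY1, 576 and 578 with the wild-type form and 573 and 588 with delta27-BCL7A, and at 291 and 283, 454 and 472.5, and 490.2 and 485 CPM in the same groups of VAL; these reads do not separate the vector's BCL7A from the cell's own, or wild-type from mutant. All 10 B cell markers reached 1 CPM in every VAL library and 9 of 10 in every OCI-LY1 library, CR2 being the exception. Their summed level was 3495 and 3545 CPM with delta27-BCL7A in VAL against 3774 to 3937 in the other VAL libraries. In VAL, 4 of the 10 were called lower with delta27-BCL7A than with empty vector and 0 higher, where 2.63% and 2.50% of all genes were. With the wild-type form against delta27-BCL7A, 5 of the 10 were called higher and 0 lower, where 4.54% and 4.53% of all genes were. The 11 markers of myeloid and dendritic cells summed to 6.19 to 6.69 CPM with empty vector, 7.67 to 8.51 with wild-type BCL7A and 4.89 to 5.19 with delta27-BCL7A in VAL, and to at most 1.47 CPM in OCI-LY1; S100A8 and CLEC9A were at 0 in all 12 libraries. The 11 T and NK cell markers summed to 4.85 to 5.56 CPM with wild-type BCL7A against 2.96 to 4.0 in the other VAL libraries, and to 18.2 to 19.8 against 13.6 to 15.1 in OCI-LY1, with TRAC alone at 1 CPM or more in every library. The 8 fibroblast, epithelial and endothelial markers summed to 32.0 to 33.3 CPM with wild-type BCL7A against 33.6 to 36.5 in the other VAL libraries, and to 18.9 to 19.1 against 22.2 to 28.0 in OCI-LY1, where EPCAM was called lower with wild-type BCL7A than with empty vector (log2 fold change -0.52 ± 0.0921, adjusted p 0.000195). The part of these markers in the results was not tested. In bulk RNA, fewer cells of a type and less RNA per cell cannot be told apart. Reads set aside for low alignment quality made up 3.92% and 3.01% of the delta27-BCL7A libraries in OCI-LY1 and 3.87% and 5.66% of those in VAL, against 4.72% to 6.9% of the other libraries, a range that holds the second VAL library with delta27-BCL7A. The part of this share was not tested.

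The 2 delta27-BCL7A libraries of VAL differed from each other in the interferon-stimulated genes. In the second library 5 of the 43 genes were higher than in the first, with a median difference of -0.21 on the log2 scale, against -0.01 over all genes tested. The second empty vector library of VAL was higher than the first in 38 of 43, with a median of 0.12. In the other 4 groups between 18 and 28 of the 43 were higher in the second library. Over all genes tested, the 2 wild-type libraries of VAL differed most, by a median absolute log2 of 0.133. By the same measure the 2 delta27-BCL7A libraries of VAL differed least, at 0.0858. The summed level of the 45 genes was 2985 and 3186 CPM with empty vector, 3136 and 3174 with wild-type BCL7A and 2790 and 2446 with delta27-BCL7A in VAL. In OCI-LY1 it was 1480 and 1482, 1564 and 1588, and 1460 and 1482 CPM. Both delta27-BCL7A libraries of VAL lay below the other 4 libraries of the line, and the second of them was the lowest. The VAL results with delta27-BCL7A are therefore given also without the second of these libraries.

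**Figure D1:**
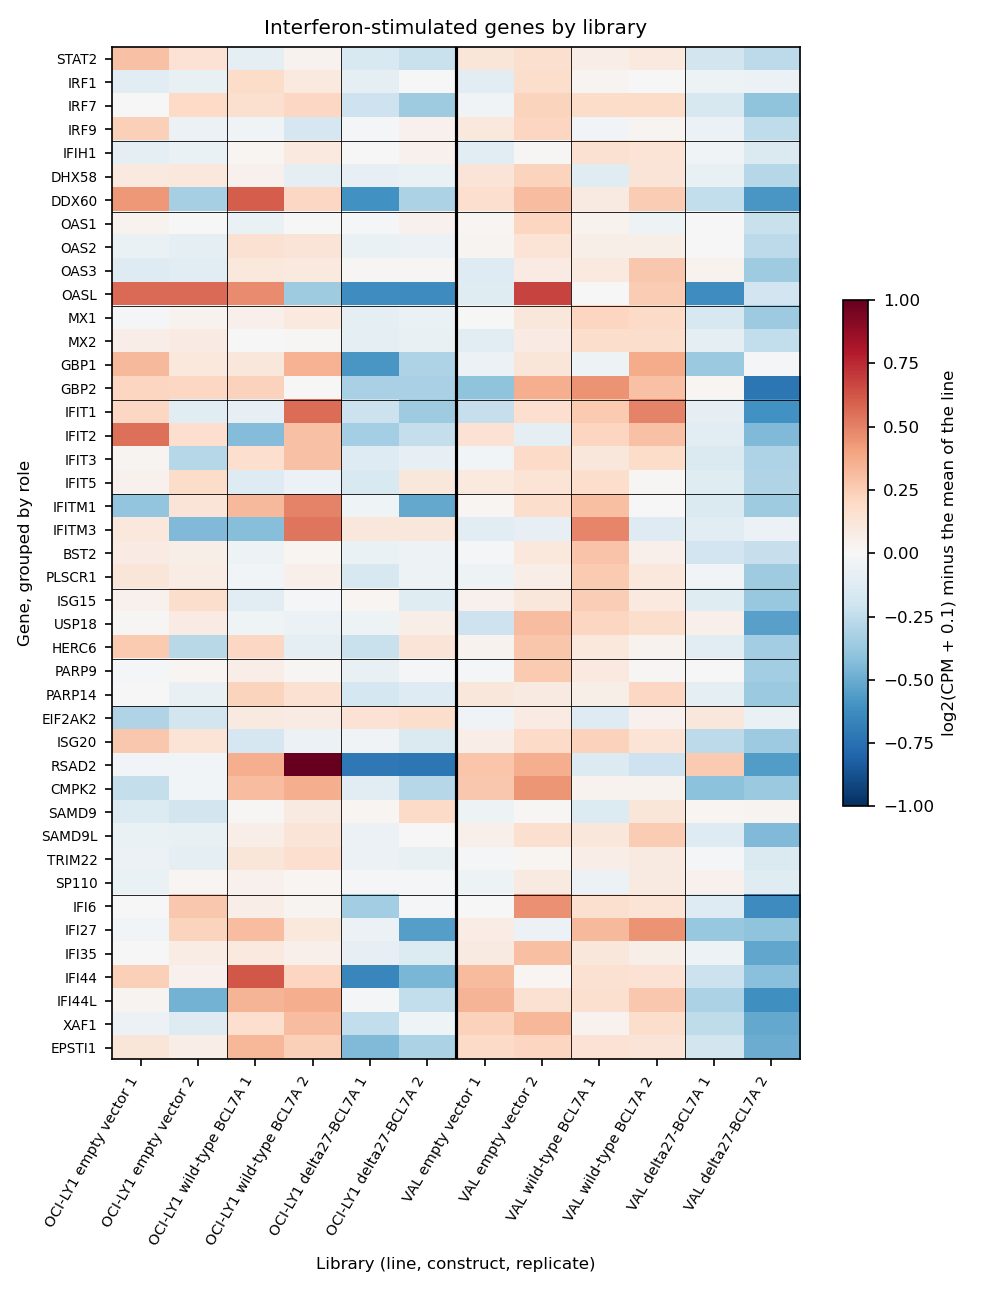
Heat map of the 43 interferon-stimulated genes tested (rows, grouped by role) in the 12 libraries (columns). Colour gives log2(CPM + 0.1) minus the mean of the 6 libraries of the line, limited to 1 in either direction. The 2 delta27-BCL7A columns of VAL are blue in most rows, the second more than the first.

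With empty vector, the interferon-stimulated genes stood higher in VAL than in OCI-LY1. Of the 43 tested, 34 were higher in VAL and 6 lower (edgeR quasi-likelihood test, adjusted p under 0.05), where 36.9% of all genes were higher and 36.5% lower, and the median log2 difference was 1.38 against 0.01 over all genes. Levels between genes are given as CPM per kb of exon, the length being the union of all annotated exons of a gene. It was 1119 bases for BST2, 6020 for TRIM22 and 8616 for MX1, and can exceed the length of the transcript expressed. The highest in VAL were BST2, the tetherin that holds budding virions at the cell surface, at 90.6 ± 5.28 (SD, n = 2), TRIM22 at 73.4 ± 1.09, MX1 at 54.0 ± 2.85, IFITM1 at 53.7 ± 4.02 and ISG15 at 51.8 ± 1.72. In OCI-LY1 the highest were BST2 at 76.4 ± 0.865, ISG15 at 40.1 ± 2.51, TRIM22 at 21.3 ± 0.423, OAS3 at 16.5 ± 0.240 and SP110 at 16.2 ± 0.688. By this measure BST2 led in both lines, while MX1, IFITM1 and ISG15 in VAL, and OAS3 and SP110 in OCI-LY1, did not differ beyond their spread. The order depends on the length used. In CPM, MX1 (465) and TRIM22 (442) stood above BST2 (101) in VAL, and TRIM22 (128) above BST2 (85.5) in OCI-LY1. The lowest detected genes were RSAD2 at 0.243 ± 0.0109, GBP2 at 0.280 ± 0.109, GBP1 at 0.303 ± 0.0291, IFI27 at 0.387 ± 0.0268 and CMPK2 at 0.541 ± 0.0469 in VAL. In OCI-LY1 they were GBP2 at 0.0267, from 4 reads per library, RSAD2 at 0.0693, from 8 reads per library, LY6E at 0.0794 ± 0.0450, IFI44L at 0.0859 ± 0.0232 and IFITM3 at 0.0932 ± 0.0440.

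The largest differences between the lines were those of IFI44L, an inhibitor of virus replication, and IFITM1, which blocks fusion of virus with the cell membrane. IFI44L stood at 1.05 and 0.712 CPM in OCI-LY1 and at 115 and 101.1 in VAL, a log2 difference of 6.93 ± 0.148 (SE; adjusted p 1.5e-23). IFITM1 had 9 and 14 reads in OCI-LY1 and 1206 and 1359 in VAL, a log2 difference of 6.90 ± 0.179. The 4 transcription factors were all higher in VAL, by a log2 difference of 1.61 for STAT2, 2.03 for IRF1, 1.84 for IRF7 and 1.78 for IRF9. Against this direction, OAS3, an oligoadenylate synthetase that activates RNase L, stood at 135 and 138 CPM in OCI-LY1 and 26.1 and 30.2 in VAL, a log2 difference of -2.28 ± 0.0808 (adjusted p 2.41e-18). SAMD9, a restriction factor for poxviruses, was also lower in VAL, at a log2 difference of -0.99, as were IFI27 (-0.90), GBP1 (-0.84), IFI35 (-0.69) and MX2 (-0.34). In OCI-LY1, GBP2, HERC5, IFITM1, IFITM3, LY6E, OASL and RSAD2 were under 1 CPM in every library, and in VAL only HERC5 and LY6E were. At least 10 CPM in every library was reached by 21 of the 45 in OCI-LY1 and 29 in VAL. The day of collection differs with the line here too.

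**Figure D2:**
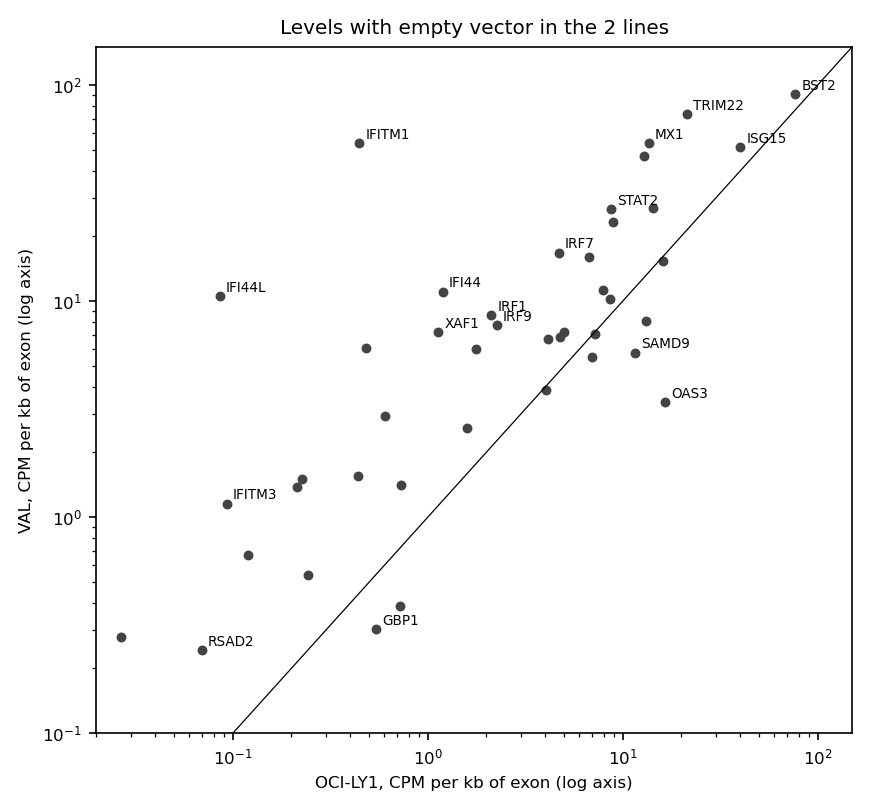
Mean level with empty vector in OCI-LY1 (x axis) and VAL (y axis) in CPM per kb of exon, both log axes, 1 point per gene tested, with the line of equal levels. Most points lie above the line, IFI44L and IFITM1 farthest, and OAS3, SAMD9 and GBP1 lie below it.

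The transcription factors come first among the responses to BCL7A. STAT2, the ISGF3 subunit particular to type I and III signalling, stood at 161 and 165 CPM with empty vector in VAL, 155 and 158 with wild-type BCL7A and 130.1 and 123 with delta27-BCL7A. Both delta27-BCL7A libraries lay below the other 4. Separation of 2 libraries from 2 was frequent over all genes, and its shares are given further on. STAT2 was lower with delta27-BCL7A than with empty vector by 0.36 on the log2 scale (log2 fold change -0.36 ± 0.0540, adjusted p 7.55e-05) and higher with wild-type than with delta27-BCL7A by 0.30 ± 0.0542 (adjusted p 0.000258). In OCI-LY1 it stood at 56.0 and 50.4 CPM with empty vector, 42.5 and 46.7 with wild-type BCL7A and 41.0 and 39.1 with delta27-BCL7A. There both forms lay below empty vector, the log2 fold change being -0.25 ± 0.0632 with wild-type (adjusted p 0.00604) and -0.41 ± 0.0638 with delta27-BCL7A (adjusted p 1.16e-05), and the 2 forms differed by 0.16 with an adjusted p of 0.204. The call with wild-type BCL7A in OCI-LY1 was lost without the first empty vector or the first wild-type library, the log2 fold change lying between -0.33 and -0.18 over the libraries left out.

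IRF7, which amplifies the response by inducing interferon genes, stood at 40.2 and 48.0 CPM with empty vector in VAL, 46.7 and 46.8 with wild-type BCL7A and 36.8 and 31.2 with delta27-BCL7A. In OCI-LY1 it stood at 11.5 and 13.2, 12.8 and 13.2, and 9.95 and 8.97 CPM in the same order. The delta27-BCL7A libraries were the lowest in both lines and overlapped with no other group. IRF7 was higher with wild-type than with delta27-BCL7A by 0.46 ± 0.0802 in VAL (adjusted p 0.000258) and by 0.46 ± 0.115 in OCI-LY1 (adjusted p 0.0199), the latter call being lost with limma-voom, with the GC and length correction and without 3 of the libraries taken singly, at log2 fold changes of 0.39 to 0.54 over the libraries left out. The difference between the lines was -0.01, with a 95% interval from -0.28 to 0.27. Against empty vector it fell with delta27-BCL7A by 0.37 in VAL (adjusted p 0.00496) and by 0.38 in OCI-LY1 (adjusted p 0.0165), and each of these calls was lost without 2 of the libraries taken singly. The OCI-LY1 call was lost also with the GC and length correction, at -0.11. IRF9, the DNA-contacting subunit of ISGF3, stood at 28.3 and 30.6, 25.8 and 26.8, and 25.3 and 22.0 CPM in VAL, and was lower with delta27-BCL7A than with empty vector (log2 fold change -0.31 ± 0.0843, adjusted p 0.0225), a call lost with DESeq2, in the fit of VAL alone, without either empty vector library and, at -0.22, without the second delta27-BCL7A library; in OCI-LY1 it lay between 7.12 and 9.47 CPM with overlapping groups for both forms against empty vector and no call. IRF1, the factor most tied to interferon gamma, stood at 60.9 and 74.0, 66.8 and 65.5, and 63.2 and 62.9 CPM in VAL, and at 16.2 and 16.7, 20.01 and 18.8, and 16.4 and 17.7 in OCI-LY1, with no call in any of the 6 comparisons within a line. Its 95% interval for wild-type minus delta27-BCL7A in VAL ran from -0.07 to 0.21.

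**Figure D3:**
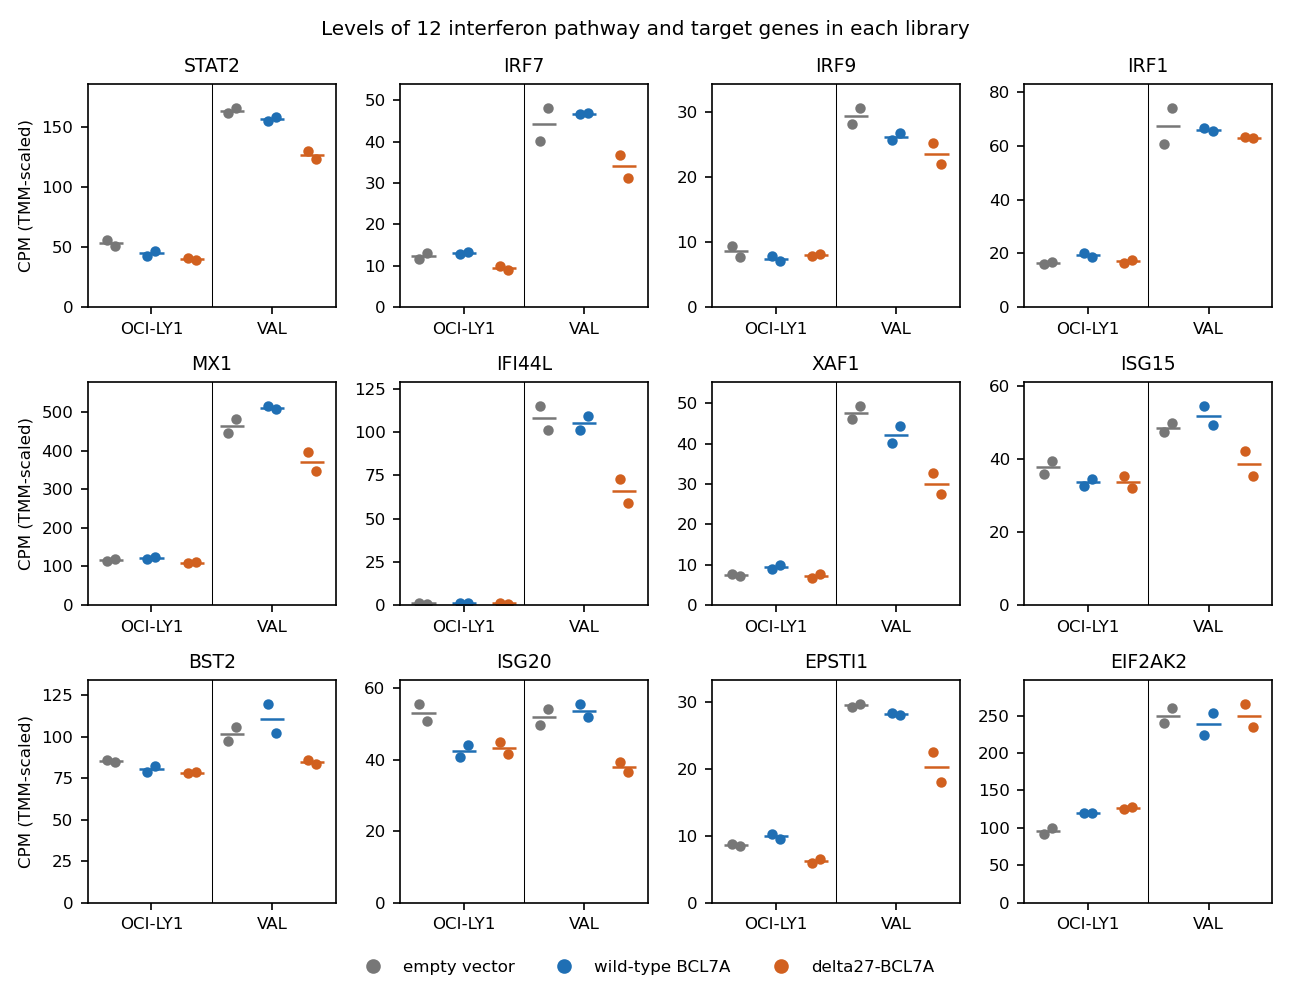
Level in CPM, scaled between libraries, of 12 genes of the interferon response in each library (points), with the mean of each group (bar), by construct (colour) and line. Vertical axes start at 0. In VAL the orange delta27-BCL7A points lie lowest for STAT2, IRF7, MX1, IFI44L, XAF1, ISG15, BST2, ISG20 and EPSTI1, and for EIF2AK2 the OCI-LY1 points lie higher with both forms than with empty vector.

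In VAL many of these genes were higher with wild-type than with delta27-BCL7A. Of the 43 tested, 26 were higher with wild-type BCL7A (60.5%), where 4.54% of all genes were, and 0 were lower, where 4.53% of all genes were; 30 were higher and 0 lower at an unadjusted p under 0.05, and DESeq2 called 17. The median log2 fold change was 0.38 over the 43 and 0.00470 over all genes. In 35 of the 43 both wild-type libraries lay above both delta27-BCL7A libraries, against 26.3% of all genes. In 0 of the 43 they lay below, against 24.4% of all genes. Without the second delta27-BCL7A library 11 were called, and without the first wild-type library 17. The 15 calls lost without the second delta27-BCL7A library kept their direction, at log2 fold changes of 0.81 for IFI27, 0.47 for IFIT1, 0.43 for DDX60, 0.37 for IFIT2, 0.36 for IFI44, 0.32 for EPSTI1, 0.31 for IFITM1, 0.30 for IFIT3, 0.28 for IFI6, 0.21 for PLSCR1, 0.18 for IFIH1, 0.15 for OAS3, 0.14 for IFI35, 0.09 for TRIM22 and 0.06 for OAS2. MX1, IFI44L, ISG20, BST2, XAF1, SAMD9L, STAT2, IRF7, MX2 and PARP14 were called under each alternative run, including each left-out library. As a description over genes, the Spearman correlation of the fold change with GC content was 0.241 over all genes and 0.0181 over these genes, and their median with trends in GC content and length removed was 0.34.

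MX1, a dynamin-like GTPase that traps viral nucleocapsids, stood at 516 and 508 CPM with wild-type BCL7A, 398 and 347 with delta27-BCL7A and 448 and 482 with empty vector. Its log2 fold change between the forms was 0.46 ± 0.0525, or 1.37-fold (adjusted p 1.76e-07), the smallest p of the list. Its relative MX2, which restricts lentiviruses, stood at 81.4 and 81.6 against 67.9 and 60.8 CPM, a log2 fold change of 0.34 ± 0.0610 (adjusted p 0.00029). Both MX genes were highest in the 2 wild-type libraries. GBP1 and GBP2, guanylate-binding proteins induced mainly by interferon gamma, were not called, with 42 reads or fewer of GBP1 and 52 or fewer of GBP2 in each VAL library.

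All 7 genes of the IFI group and its companions were called. IFI44L stood at 101.4 and 109.6 CPM with wild-type BCL7A against 73.0 and 59.2 with delta27-BCL7A, a log2 fold change of 0.67 ± 0.0763, or 1.59-fold (adjusted p 1.91e-06). XAF1, an antagonist of the apoptosis inhibitor XIAP, stood at 40.1 and 44.4 against 32.8 and 27.4 CPM, a log2 fold change of 0.49 ± 0.0789 (adjusted p 7.64e-05). The forms did not overlap for either gene. EPSTI1, an interferon-induced gene first described through epithelial and stromal contact, differed by 0.47 ± 0.0859, IFI44 by 0.46 ± 0.101, IFI35 by 0.35 ± 0.11, IFI6, an inhibitor of apoptosis, by 0.50 ± 0.160 and IFI27, a mitochondrial protein, by 0.82 ± 0.254. IFI27 was at most 2.22 CPM in VAL, and its call, like those of EPSTI1, IFI44, IFI35 and IFI6, was lost without at least 1 library, the log2 fold changes keeping their sign; for IFI35 they reached 0.14 and for IFI6 0.28. The calls of IFI35 and IFI6 were lost in 13 and 10 of the 21 alternatives run, among them DESeq2, limma-voom, the fit of VAL alone and the GC and length correction.

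Among the effectors that act on RNA, ISG20, a 3′ to 5′ exonuclease, stood at 55.6 and 51.9 CPM with wild-type BCL7A, 39.4 and 36.7 with delta27-BCL7A and 49.6 and 54.2 with empty vector. Its log2 fold change between the forms was 0.50 ± 0.0689, or 1.41-fold (adjusted p 5.39e-06). The delta27-BCL7A libraries lay apart from the other 4. The oligoadenylate synthetases OAS3 (0.33) and OAS2 (0.19) were called, the call of OAS2 being lost with DESeq2, in the fit of VAL alone and without any 1 of 7 libraries, and that of OAS3 with DESeq2, in the fit of VAL alone and without the second wild-type or second delta27-BCL7A library, and OAS1 and OASL were not. Of the IFIT proteins, which bind viral RNA ends, IFIT1 (0.71), IFIT2 (0.52) and IFIT3 (0.38) were called and IFIT5 (0.31, adjusted p 0.103) was not. DESeq2 called none of the 3. Of the RNA sensors, IFIH1, which encodes MDA5, differed by 0.23 ± 0.0618 and DDX60, a helicase that assists it, by 0.58 ± 0.148, while DHX58, which encodes LGP2, was not called at 0.18. The call of DDX60 was lost with DESeq2 and without the second delta27-BCL7A library. That of IFIH1 was lost without the first wild-type or the second delta27-BCL7A library, at log2 fold changes down to 0.18. EIF2AK2, the kinase PKR that arrests translation, stood at 224 and 253 CPM with wild-type and 265 and 234 with delta27-BCL7A, with a log2 difference of -0.07 and a 95% interval from -0.19 to 0.06.

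At the membrane, BST2 stood at 119.7 and 101.9 CPM with wild-type BCL7A against 86.2 and 83.5 with delta27-BCL7A, a log2 fold change of 0.38 ± 0.0605 (adjusted p 4.87e-05). IFITM1 stood at 66.7 and 54.0 against 48.8 and 42.3 CPM (0.41 ± 0.0835, adjusted p 0.00257), and PLSCR1, a scramblase that blocks virus fusion, at 34.6 and 31.0 against 28.3 and 22.5 (0.37 ± 0.0852, adjusted p 0.00492). The forms did not overlap for BST2, IFITM1 and PLSCR1, a separation in this direction that 26.3% of all genes had. The calls of IFITM1 and PLSCR1 were each lost without the first wild-type or the second delta27-BCL7A library. Their log2 fold changes went down to 0.24 and 0.21. IFITM3 was not called, and reads of IFITM1, IFITM2 and IFITM3 are hard to assign between near-identical copies. ISG15, the ubiquitin-like modifier, stood at 54.6 and 49.3 against 42.3 and 35.4 CPM, a log2 fold change of 0.42 ± 0.0753 (adjusted p 0.000362), a call lost with the GC and length correction. Its protease USP18 (0.42) and the ligase-related HERC6 (0.29) were not called. PARP14, an ADP-ribosyltransferase, stood at 163 and 181 against 146 and 121 CPM (0.36 ± 0.0636), and its relative PARP9 was not called at 0.22.

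SAMD9L, the paralogue of SAMD9 and a brake on translation, stood at 51.8 and 57.1 CPM with wild-type BCL7A against 43.7 and 35.3 with delta27-BCL7A, a log2 fold change of 0.46 ± 0.0744 (adjusted p 9.5e-05). SAMD9 stood at 36.5 and 43.7 against 40.7 and 40.9 CPM, with a log2 difference of -0.03 and a 95% interval from -0.18 to 0.12. The forms overlapped for SAMD9 and not for SAMD9L, a contrast that was noticed in the data, and the difference between the genes was not tested. TRIM22, a ubiquitin ligase that restricts several viruses, differed by 0.15 ± 0.0477 (adjusted p 0.0367), at 460.3 and 469 against 437 and 398 CPM, and its call was lost in 6 of 21 alternatives, among them no filter on low counts, the fit of VAL alone and the replicate block. SP110, a nuclear body protein, CMPK2, a nucleotide kinase of mitochondria, and RSAD2, which encodes viperin, were not called.

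**Figure D4:**
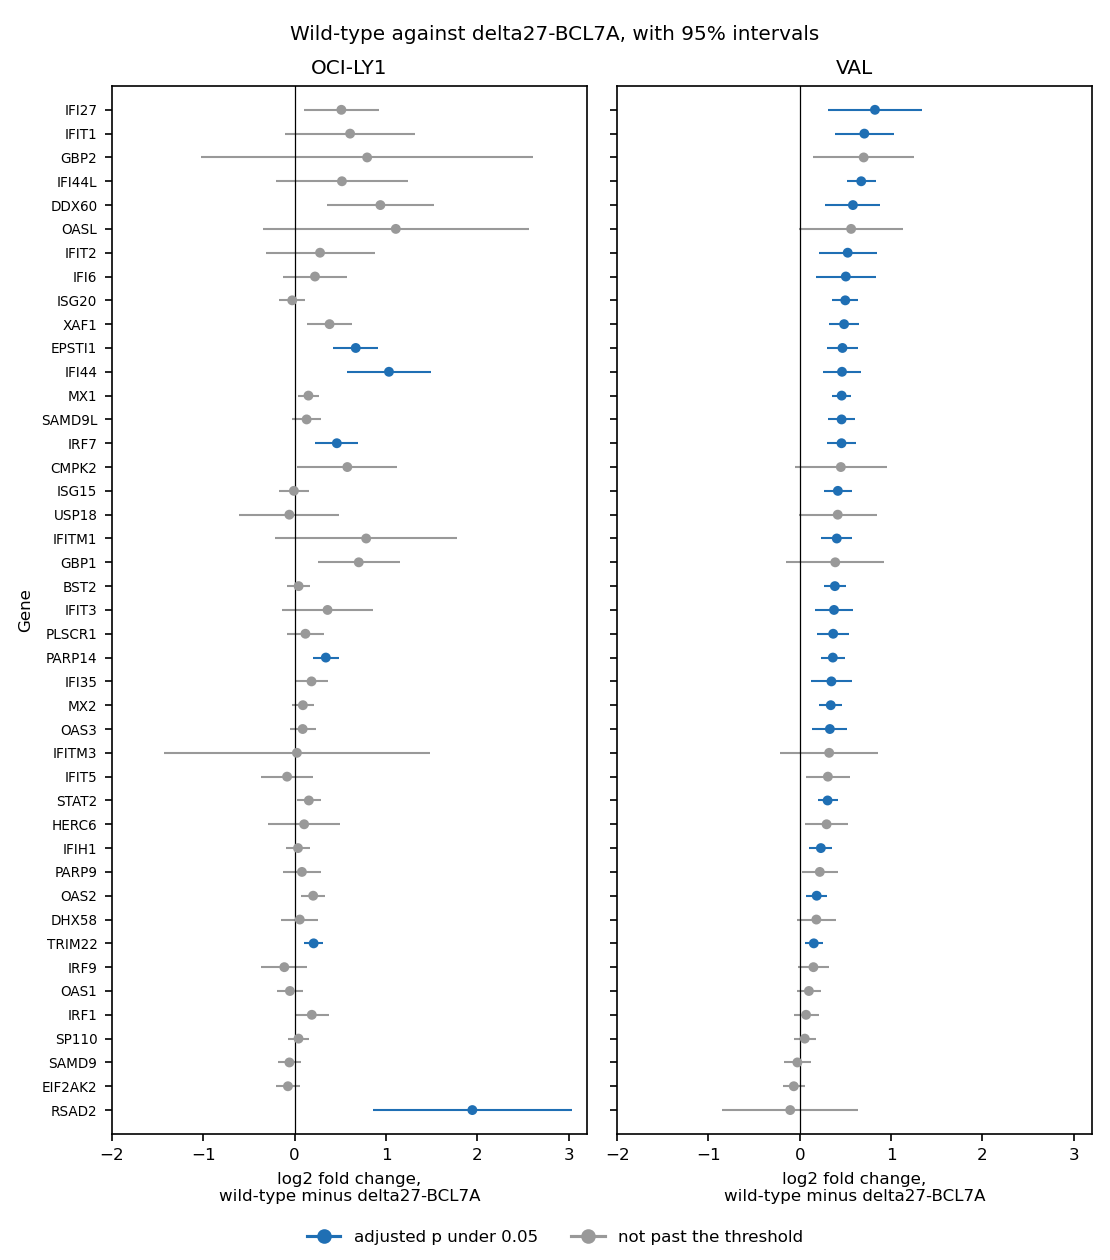
Log2 fold change of wild-type minus delta27-BCL7A (x axis) with its 95% interval for each of the 43 genes tested, in OCI-LY1 (left) and VAL (right), in the order of the VAL values. Blue marks an adjusted p under 0.05. In VAL 26 genes are blue and all of these lie to the right of 0; in OCI-LY1 6 are blue, also to the right.

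Against empty vector in VAL, many of the genes were lower with delta27-BCL7A, and none was called with wild-type BCL7A. With delta27-BCL7A, 22 of the 43 genes fell (51.2%), where 2.63% of all genes did, and 0 rose, where 2.50% of all genes did. The median log2 fold change was -0.32, against -0.00605 over all genes. Without the second delta27-BCL7A library 5 were called, namely XAF1, IFI44L, STAT2, ISG20 and EPSTI1, and without the second empty vector library 9, and the fit of VAL alone gave 12. These 5 genes were called under each alternative run, and the 17 calls lost without the second delta27-BCL7A library had log2 fold changes of -0.81 to -0.09 there. With wild-type BCL7A 0 of 43 were called in either direction, where 0.885% of all genes were higher and 0.733% lower; 7 were higher and 2 lower at an unadjusted p under 0.05, and DESeq2 and limma-voom called 0. The median was 0.02 against 0 over all genes. The comparisons share their empty vector libraries, and the wild-type and delta27 comparison shares the delta27-BCL7A libraries.

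XAF1 and IFI44L had the smallest p with delta27-BCL7A in VAL. XAF1 stood at 46.1 and 49.3 CPM with empty vector and 32.8 and 27.4 with delta27-BCL7A (log2 fold change -0.66 ± 0.0778, adjusted p 1.39e-06), and at 40.1 and 44.4 with wild-type BCL7A, between these groups. IFI44L stood at 115 and 101.1 CPM with empty vector and 73.0 and 59.2 with delta27-BCL7A (-0.71 ± 0.0761, adjusted p 4.84e-06). In both genes the delta27-BCL7A libraries lay below all others of the line. EPSTI1 stood at 29.4 and 29.8 against 22.6 and 18.1 CPM (-0.53 ± 0.0852, adjusted p 0.000205), and ISG20 had a log2 fold change of -0.45 ± 0.0690. MX1 fell by 0.32 (log2 fold change -0.32 ± 0.0526), SAMD9L by 0.38, PARP14 by 0.33 and IFI44 by 0.49, each losing its call without the second delta27-BCL7A library.

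By role, 3 of 4 transcription factors, 2 of 3 RNA sensors (DDX60 and DHX58), 2 of 4 oligoadenylate synthetases (OAS1 and OAS2) and 1 of 4 GTPases (MX1) fell with delta27-BCL7A in VAL. None of the 4 IFIT genes was called, their log2 fold changes lying between -0.32 and -0.30. Of the membrane factors BST2 (-0.26) and IFITM1 (-0.35) fell, of the ISG15 system ISG15 (-0.32) and HERC6 (-0.38), and of the IFI group 6 of 7, IFI27 being the exception. CMPK2 also fell, by 0.79 on the log2 scale, from 2.18 and 2.47 to 1.33 and 1.37 CPM. Its call was lost in 9 of 19 alternatives, among them limma-voom, no filter and the fit of VAL alone. The calls of HERC6, DHX58 and BST2 were lost in 9 of 20, 6 of 20 and 5 of 21, and that of IFITM1 in 4 of 21. Without the second delta27-BCL7A library the log2 fold changes of OAS1 and OAS2 were -0.13 and -0.09. EIF2AK2 (-0.000499) and SAMD9 (0.04) were not called, with 95% intervals of -0.12 to 0.12 and -0.11 to 0.19.

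In OCI-LY1 the forms differed in the same direction in fewer genes. With wild-type against delta27-BCL7A, 6 of the 43 were higher (14%), where 1.68% of all genes were, and 0 were lower, where 1.38% of all genes were; 16 were higher and 0 lower at an unadjusted p under 0.05. The median log2 fold change was 0.18 against 0 over all genes. EPSTI1 stood at 10.3 and 9.6 CPM with wild-type and 5.97 and 6.52 with delta27-BCL7A, a log2 fold change of 0.67 ± 0.122 (adjusted p 0.00109), and was called under each alternative run. PARP14 stood at 84.0 and 80.3 against 63.9 and 65.8 CPM (0.34 ± 0.0694, adjusted p 0.00497), IFI44 at 3.42 and 2.56 against 1.36 and 1.57 (1.03 ± 0.227, adjusted p 0.00671) and TRIM22 at 147 and 151 against 129.8 and 128 (0.21 ± 0.0512, adjusted p 0.0169). For each of these genes the 2 wild-type libraries lay above the 2 with delta27-BCL7A. They did so in 30 of the 43 and lay below in 2, against 24.9% and 23.6% of all genes. RSAD2 had 11 and 20 reads with wild-type BCL7A against 4 and 4 with delta27-BCL7A (1.95 ± 0.535, adjusted p 0.036), and its gene overlaps CMPK2 on the opposite strand. The count of calls fell to 2 without the first wild-type library, 3 without the second, 2 without the first delta27-BCL7A library and 1 without the second, and fitting the line alone gave 11.

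Between the lines, whose libraries are separate, 5 genes were higher with wild-type than with delta27-BCL7A in both: TRIM22, EPSTI1, IFI44, PARP14 and IRF7. They are 83.3% of the 6 in OCI-LY1 and 19.2% of the 26 in VAL, where 60.5% of all 43 were called. Over all genes tested, 116 were higher in both, 40.6% of the 286 in OCI-LY1 and 15% of the 774 in VAL. MX1 stood at 120.5 and 124 CPM in OCI-LY1 with the wild-type form and 109.2 and 111 with delta27-BCL7A, a log2 difference of 0.15 ± 0.0573 (adjusted p 0.152). IFI44L stood near 1 CPM in OCI-LY1 with an interval of the difference from -0.21 to 1.24, so that a difference of the size seen in VAL was not resolvable at this depth.

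With delta27-BCL7A against empty vector in OCI-LY1, 6 of the 43 genes fell, where 9.16% of all genes did, and 2 rose, where 10.4% of all genes did. The members' shares were 14% and 4.65%. The median was -0.13 against -0.03 over all genes. Both delta27-BCL7A libraries lay below both of empty vector in 21 of the 43 and above in 7, against 31.8% and 26.2% of all genes. STAT2 fell, as given above, and so did ISG20 from 55.6 and 50.8 to 44.9 and 41.7 CPM (log2 fold change -0.30 ± 0.0672, adjusted p 0.00144), EPSTI1 (-0.48), IRF7 (-0.38), IFI44 (-0.73) and GBP1 (-0.68, from 70 and 60 to 36 and 44 reads). EIF2AK2 rose from 92.0 and 99.5 to 125 and 128 CPM (0.40 ± 0.0630, adjusted p 2.56e-05), and SAMD9 from 80.2 and 77.6 to 89.3 and 100.4 (0.27 ± 0.0633, adjusted p 0.00241). EIF2AK2 has a GC content of 38.7% and SAMD9 of 36%, against a median of 48.2% over all genes. IRF7 has one of 66.8%. With trends in GC content and length removed the calls of EIF2AK2 (0.16) and IRF7 (-0.11) were lost and SAMD9 had a log2 fold change of -0.0417, and over all genes the Spearman correlation of the fold change with GC content was -0.415. Without the first empty vector library 5 were called, without the first delta27-BCL7A library 5 and without the second 3. STAT2 was called under each alternative.

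With wild-type BCL7A against empty vector in OCI-LY1, 6 of the 43 genes rose (14%), where 6.23% of all genes did. Another 2 fell (4.65%), where 5.21% of all genes did. The median was 0.08 against -0.01 over all genes. EIF2AK2 rose to 120.4 and 120.2 CPM (0.33 ± 0.0633, adjusted p 0.000668), TRIM22 from 129.8 and 126 to 147 and 151 (0.22 ± 0.0512, adjusted p 0.00341) and OAS2 from 81.4 and 80.2 to 94.6 and 93.2 (0.22 ± 0.0633, adjusted p 0.022). SAMD9 (0.21), PARP14 (0.22) and OAS3 (0.22, from 135 and 138 to 159 and 159 CPM) also rose. ISG20 fell to 40.9 and 44.1 CPM (-0.32 ± 0.0675, adjusted p 0.00115), as did STAT2. For ISG20 and EIF2AK2 both forms of BCL7A lay on the same side of empty vector, sharing its libraries. The count of calls fell from 8 to 2 without the first empty vector or the first wild-type library and to 3 without the second of either, DESeq2 called 5, and none of the 8 was called under each alternative.

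The difference between the lines in the response to each construct was tested as an interaction. Between wild-type and delta27-BCL7A 1 of 43 differed, higher in VAL (0.270% of all genes higher, 0.182% lower): ISG20, whose log2 fold change was -0.03 in OCI-LY1 and 0.50 in VAL, a difference of 0.52 ± 0.0975 (adjusted p 0.00387). MX1 (0.31, adjusted p 0.0657), BST2 (0.34, adjusted p 0.0673) and ISG15 (0.43, adjusted p 0.0773) had differences that missed the threshold. For the other 42 genes a difference between the lines was not shown. For wild-type BCL7A against empty vector 1 differed upward in VAL, ISG20 (0.37), and 2 downward, EIF2AK2 (-0.40) and XAF1 (-0.51), where 1.25% and 2.63% of all genes did. For delta27-BCL7A against empty vector 0 differed upward and EIF2AK2 (-0.40), XAF1 (-0.61) and SAMD9L (-0.42) downward, where 0.281% and 1.23% of all genes did. XAF1 stood at 7.67 and 7.28 CPM with empty vector in OCI-LY1, 8.98 and 9.9 with wild-type BCL7A and 6.73 and 7.74 with delta27-BCL7A. Each of these 7 calls was lost without at least 1 library, and that of SAMD9L was lost in 14 alternatives and kept in 6. The count for wild-type BCL7A against empty vector moved from 3 to 0 without the first empty vector library of OCI-LY1, to 1 without its first wild-type library or the first wild-type library of VAL, and to 5 without the second wild-type library of VAL. The count for delta27-BCL7A against empty vector moved from 3 to 0 without the first empty vector or the second delta27-BCL7A library of OCI-LY1 or the second delta27-BCL7A library of VAL, to 1 without the second empty vector library of OCI-LY1 or either one of VAL, and to 6 without the first delta27-BCL7A library of VAL. The count between the forms moved from 1 to 0 without the first wild-type or first delta27-BCL7A library of OCI-LY1 or the second delta27-BCL7A library of VAL, and to 4 without the second wild-type or first delta27-BCL7A library of VAL.

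The other genes of the interferon pathway were taken from lists, whose counts between the forms stand against the shares over all genes given above, 4.54% higher and 4.53% lower in VAL and 1.68% and 1.38% in OCI-LY1. None of the 21 interferon ligand genes passed the filter: 15 had 0 reads in all 12 libraries, and the rest summed to 56 reads, of which IFNG had 36 and IFNB1 12. All 9 receptor and kinase genes were tested; in VAL wild-type against delta27-BCL7A 0 were higher and 2 lower, and with delta27-BCL7A against empty vector 0 changed in VAL. One of the 2 was IFNAR1, a chain of the type I receptor, at 70.1 and 71.1 against 80.3 and 78.0 CPM (log2 fold change -0.17 ± 0.0537, adjusted p 0.0469), opposite in sign to most of the target genes; the other was IFNLR1 (-0.20). In OCI-LY1 IFNAR1 rose with delta27-BCL7A against empty vector (0.26 ± 0.0526, adjusted p 0.000361). Of 13 other STAT and IRF genes tested, 3 were higher with wild-type than with delta27-BCL7A in VAL, namely STAT6, STAT5A and IRF4, and 2 were higher and 1 lower in OCI-LY1. STAT6, which acts in interleukin 4 signalling, stood at 457 and 437 against 363 and 351 CPM in VAL (0.33 ± 0.0462, adjusted p 8.19e-06) and at 273 and 271 against 234 and 227 in OCI-LY1 (0.24 ± 0.0471, adjusted p 0.00289).

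Of 16 negative regulators tested, 4 were higher and 2 lower with wild-type than with delta27-BCL7A in VAL, and 2 and 0 in OCI-LY1. PTPN6, the phosphatase SHP-1 that dephosphorylates JAK kinases, led in both, at 119.6 and 108 against 73.6 and 69.0 CPM in VAL (0.68 ± 0.0617, adjusted p 1.94e-09) and 9.32 and 9.17 against 7.29 and 5.54 in OCI-LY1 (0.53 ± 0.120, adjusted p 0.00914). Of 19 nucleic acid sensing genes, 2 were higher in VAL, IKBKE and MYD88, and 1 in OCI-LY1, UNC93B1. A further 66 interferon-induced genes gave 59 tested: 13 were higher and 1 lower with wild-type than with delta27-BCL7A in VAL, with a median of 0.12. With delta27-BCL7A against empty vector 0 of the 59 rose and 15 fell in VAL, with a median of -0.13, where 2.50% and 2.63% of all genes did. In OCI-LY1 7 were higher and 0 lower between the forms, with a median of 0.11. LGALS9, which encodes galectin-9, stood at 26.6 and 28.0 CPM with wild-type BCL7A, 17.6 and 15.9 with delta27-BCL7A and 20.9 and 21.6 with empty vector in VAL, and at 7.65 and 8.3, 3.26 and 4.11, and 4.74 and 4.65 in OCI-LY1. The wild-type libraries were the highest in both lines, by 0.70 ± 0.0874 in VAL (adjusted p 8.71e-07) and 1.11 ± 0.137 in OCI-LY1 (adjusted p 3.31e-06) between the forms. PSMB9 and TAP1, which act in peptide loading for MHC class I, and UBE2L6, the conjugating enzyme for ISG15, fell with delta27-BCL7A against empty vector in VAL, by 0.33, 0.30 and 0.38.

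The genes followed their common mean within the lines to different degrees. With each gene centred within its line, the correlation over the 12 libraries with the mean of the 43 was above 0.5 for 39 genes and above 0.8 for 16, with a median of 0.751; the libraries share their depth and composition, each gene is part of the mean, and no test was made. The highest were EPSTI1 (0.935), IRF7 (0.929), PARP14 (0.926) and MX1 (0.926). SAMD9 (-0.186) and EIF2AK2 (-0.128) were the 2 below 0. Outside the list, the genes most like the mean by Pearson correlation over the 12 libraries were CHRNA1 (0.945), LRRC28 (0.939), ARPC2 (0.928), RPL6P4 (0.912) and APOL1 (0.91). Of these APOL1, an apolipoprotein that lyses trypanosomes, stood at 5.92 ± 0.402 CPM (SD, n = 2) in VAL with the wild-type form and 4.10 ± 1.01 with delta27-BCL7A, and CHRNA1 and RPL6P4 were under 2 CPM on average in every group.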

How the data were processed

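Polyadenylated RNA of 12 libraries (2 lines, 3 constructs, 2 libraries per group) was prepared with a stranded kit, per the labels' protocols. Each deposited table holds unnormalized counts per gene of 1 library. The submitters' processing notes name edgeR, DESeq2, R 3.6.1, the aligner STAR 2.6.1b and the counter HTSeq 0.11.2, and the builds GRCh38 and hg38. The annotation release and the strand setting of the counting are not given in the sources used here, so overlapping genes (RSAD2 with CMPK2, TRIM22 with TRIM5, PARP9 with DTX3L, SP110 with SP140) cannot be separated with certainty. Of 60603 genes, 60306 had a symbol and 58528 matched GENCODE 29, the source of gene coordinates and exon lengths. The lines of reads given to no gene stayed out of the library sizes.

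The counts were modelled here with edgeR 4.0.16 in R 4.3.3: genes were filtered at a minimum count of 10 and scaled by TMM, and a quasi-likelihood model with robust estimation gave 6 group means over 12 libraries, which left 6 residual degrees of freedom. P-values are two-sided, adjusted by Benjamini-Hochberg over all 17057 genes of a contrast, with a threshold of 0.05; SE and 95% intervals come from the fit. They rest on the spread between transductions, estimated per gene over all 12 libraries together and moderated across genes, not on the compared groups alone. The 2 delta27-BCL7A libraries of VAL differed by a median absolute log2 of 0.24 in the 43 genes, against 0.0653 to 0.14 in the other groups. For these genes the shared estimate can therefore be smaller than the spread of that group. Contrasts were the 3 pairs of constructs in each line, their differences taken as VAL minus OCI-LY1, and the lines with empty vector. The fit was also run on simulated counts with the same spread per gene in every group. That run does not cover the wider spread of these genes in the delta27-BCL7A libraries of VAL.

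The members and the other gene lists were chosen with earlier results of these data known. Named were the members past the threshold in each contrast (up to 10 by p, up to 8 for line differences), STAT2, IRF1, IRF7 and IRF9 in every group, the 5 highest and 5 lowest per kb, the undetected ones, up to 4 genes per other list, and the 5 genes most like the mean; further genes are given in the role summaries. Alternatives were RLE scaling, DESeq2 1.42.0, limma-voom (limma 3.58.1), no filter and a minimum count of 50, each line alone, the replicate number as a block, a correction for GC content and length, and leaving out each library.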

Additional observations from a re-analysis of the deposited data

Results flagged for a closer look

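Differences between the lines in the response to a construct passed the threshold 7 times among the interferon-stimulated genes, each by a test of the difference itself (VAL minus OCI-LY1, log2 scale, edgeR). For wild-type BCL7A against empty vector, EIF2AK2 differed by -0.395 ± 0.0865 (SE, adjusted p 0.00683), XAF1 by -0.512 ± 0.143 (adjusted p 0.0352) and ISG20 by 0.374 ± 0.0951 (adjusted p 0.018). For delta27-BCL7A against empty vector, EIF2AK2 differed by -0.403 ± 0.0862 (adjusted p 0.0114), XAF1 by -0.614 ± 0.150 (adjusted p 0.0263) and SAMD9L by -0.419 ± 0.108 (adjusted p 0.0385). For wild-type against delta27-BCL7A, ISG20 differed by 0.525 ± 0.0975 (adjusted p 0.00387). The EIF2AK2 differences come with a rise in OCI-LY1 under both constructs and levels in VAL that overlapped with empty vector. With a correction for GC content and length the EIF2AK2 differences were -0.197 and -0.277 and no longer passed. The SAMD9L call was kept in 6 alternatives and lost in 14, among them DESeq2, limma-voom and the GC and length correction. The XAF1 calls were lost in 9 (wild-type) and 7 (delta27-BCL7A), with limma-voom in both cases and with DESeq2 in the former. For ISG20 the calls were lost in 5 (wild-type against empty vector) and 3 (between the forms). For XAF1, the level fell with delta27-BCL7A in VAL, and in OCI-LY1 the delta27-BCL7A and empty vector libraries overlapped. The line and the day of collection cannot be told apart in any of these, and the first 6 differences share the empty vector libraries.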

How the results depend on the processing

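Of 77 calls of single genes followed over the alternatives (1608 comparisons), 1350 kept direction and side of the threshold, 256 lost the threshold and 2 changed sign: SAMD9 in OCI-LY1 delta27-BCL7A against empty vector, -0.0417 with the GC and length correction and -0.0426 with the replicate block added, against 0.27. Counts of called genes moved as follows; the cause was not tested. DESeq2 gave 5 in place of 8 for OCI-LY1 wild-type against empty vector, 17 in place of 26 for VAL wild-type against delta27-BCL7A and 1 in place of 3 for the line difference of wild-type against empty vector, and limma-voom gave 1 in place of 3 for that of delta27-BCL7A against empty vector. Each line alone gave 11 in place of 6 (OCI-LY1 wild-type against delta27-BCL7A) and 12 in place of 22 (VAL delta27-BCL7A against empty vector). The GC and length correction, with or without the block, gave 1 in place of 0 in VAL wild-type against empty vector. For the line difference of wild-type against delta27-BCL7A, 1 call became 4 with no filter, 2 with the replicate block, 4 with the GC and length correction and 5 with both. Leaving out each library gave 2 to 11, 3 to 10 and 1 to 8 calls in OCI-LY1 (wild-type against empty vector, delta27-BCL7A against empty vector, wild-type against delta27-BCL7A), 0 to 1, 5 to 23 and 11 to 26 in VAL, 0 to 5, 0 to 6 and 0 to 4 for the line differences, and 39 to 40 for the lines with empty vector; a group left with 1 library was taken to vary like the others.

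Deviations of libraries of the same number were weakly correlated (-0.168 to 0.15 over 9127 genes). Such weak correlations cannot exclude a pairing by number, and none was used in the main fit. In OCI-LY1 the correlation was 0.15 between wild-type and delta27-BCL7A and negative between either and empty vector. With the replicate block VAL gave 22 and 25 calls in place of 22 and 26, and OCI-LY1 7, 9 and 6 in place of 8, 8 and 6. With crossed numbers, a setting chosen after seeing the data, OCI-LY1 delta27-BCL7A against empty vector gave 11. Depth limits the genes under 1 CPM, mostly in OCI-LY1, and 2 libraries per group limit all tests.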
